A study of Mus musculus with 4 samples.

Results

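The small ribosomal subunit processing factors are proteins that cut, modify and fold the ribosomal RNA precursor into the 40S subunit. The set holds 38 listed genes of the small-subunit processome and of later 40S maturation. They were chosen by name, though with earlier results of these data known. All 38 were found among the 12390 genes of the deposited table, and all 38 passed the filter of a mean of at least 1 RPKM that left 11742 genes for testing. They were compared in mouse bone marrow cells sorted as stem cells by the surface markers Lin-Sca-1+c-Kit+CD48-CD150+, with and without deletion of Ddx21. This gene encodes an RNA helicase of the nucleolus that takes part in ribosomal RNA transcription and processing.

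The 2 control libraries came from mice with floxed Ddx21 alleles, and the 2 knockout libraries from mice with the same floxed alleles plus CAG-CreERT2. The broadly active CAG promoter drives this tamoxifen-dependent Cre recombinase, so deletion is not limited to blood cells. Every library was made from about 5000 cells with Smart-Seq V4 chemistry, which copies polyadenylated RNA from few cells and does not mark strand. The sources used here do not give tamoxifen dosing, age or the time after deletion. Whether each library is a different animal is not stated, so the p-values rest on a between-sample spread that may be only technical.

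In the nucleolus the processome gathers on the nascent precursor in modules. UTPA binds the leading spacer first, UTPB and the U3 small nucleolar ribonucleoprotein follow, and enzymes then cut and modify the RNA until the precursor of the small subunit is released. Late factors carry this particle to the cytoplasm, where the endonuclease Nob1 makes the final cut that yields mature 18S RNA. Stem cells are known for low protein synthesis, and their need for ribosome production changes when they divide.

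The libraries held 43218009 to 62871439 recovered reads. Members held between 630 and 9191 reads in a library, which is a counting error of about 4.0% at the lowest and 1.0% at the highest, before any spread between samples. The deleted gene itself, Ddx21, measured 10.95 and 12.1 RPKM in control and 6.20 and 6.60 RPKM in knockout. Its groups did not overlap, and its log2 fold change of -0.76 had an SE of 0.30 and missed the threshold (limma, adjusted p = 0.158). After the rescaling described below its log2 fold change was -1.07. Which exons are floxed is not given in the labels, so reads outside the deleted stretch may be counted too. The share of cells that carry the deletion is not given either, and how complete the deletion was could not be tested. The knockout libraries also differed from the controls in markers of cell type. The 6 stroma genes summed to 343 and 205 RPKM in control and to 4852 and 1296 RPKM in knockout, and 6 of 6 rose. The 12 genes listed as neutrophil and monocyte genes summed to 69490 and 72060 against 49130 and 31620 RPKM, and 11 of 12 fell. Large parts of the control sums came from Elane (19570 and 19798 RPKM), S100a8 (12521 and 12601), Ctsg (10229 and 10546) and Mpo (8273.9 and 8929.3). Csf1r, at 2.4677 and 0.9529 against 0.9087 and 1.7356 RPKM, was the gene not called. How mature the cells behind these genes were was not tested. The 9 stem cell markers in the table summed to 182 and 230 against 279 and 354 RPKM, and Procr was among those that rose. In the controls these markers held 0.05094% and 0.05497% of reads, and the neutrophil and monocyte list 7.653% and 8.003%. Of the sort marker genes, Slamf1 (CD150) stood at 3.8481 and 4.5483 RPKM in control. Ly6a (Sca-1) stood at 83.182 and 126.97 RPKM there, and Kit at 50.788 and 43.97 RPKM. How pure the sorted cells were was not tested. The calls above are on the deposited scale. After the rescaling described below, 1 gene of the whole table was called. The median log2 fold change then went from 3.12 to 2.79 for stroma and from -0.88 to -1.24 for neutrophil and monocyte genes. For the 8 tested stem cell markers it went from 0.62 to 0.33. The groups then still did not overlap, toward higher, for 6 of 6 stroma genes and 5 of 8 tested stem cell markers, against 28.7% of all tested genes. Toward lower this held for 11 of 12 neutrophil and monocyte genes, against 25.7% of all tested genes. The 5 erythroid genes summed to 837 and 343 against 741 and 397 RPKM, the 4 B and T cell genes to 22.2 and 18.7 against 28.5 and 39.1 RPKM, and the 2 endothelial genes to 11.5 and 9.29 against 14.1 and 22.7 RPKM. No gene of these last 3 lists passed the test. No marker in the table stood at 0, and the part of these differences in the values below was not tested. In bulk samples, fewer cells of a type and less RNA per cell cannot be told apart.

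None of the 38 factors passed the test in either direction. Over all tested genes, limma called 3.33% higher in knockout and 0.86% lower in knockout. An unadjusted p under 0.05 was found for 2 members, Nob1 and Rcl1, or 5.26% against 16.2% of all tested genes. With voom on rescaled reads 0 members were called, where 0.435% of all tested genes were called higher and 0.187% lower. The deposited values of nearly all members were nevertheless higher in knockout. The log2 fold change, on the log2(RPKM + 1) scale, was above 0 for 37 of 38, with a median of 0.28. Most genes of the table moved the same way, 83.1% of all tested genes being above 0 with a median of 0.31. Against that median, 14 members lay above and 24 below.

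The members formed a narrow band inside the distribution of all genes. Their quartiles were 0.15 and 0.36, and those of all tested genes 0.11 and 0.46. The band was not particular to the members. Quartiles were 0.18 and 0.38 for 30 further small-subunit factors, and 0.13 and 0.33 for 44 large-subunit assembly factors. Individual members ranged from the 16.8th percentile of all tested genes (Imp3) to the 88.2nd percentile (Riok2), and 29 of the 38 lay between the quartiles of all genes. The plot of changes by role shows this band with each member's SE.

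**Figure D1:**
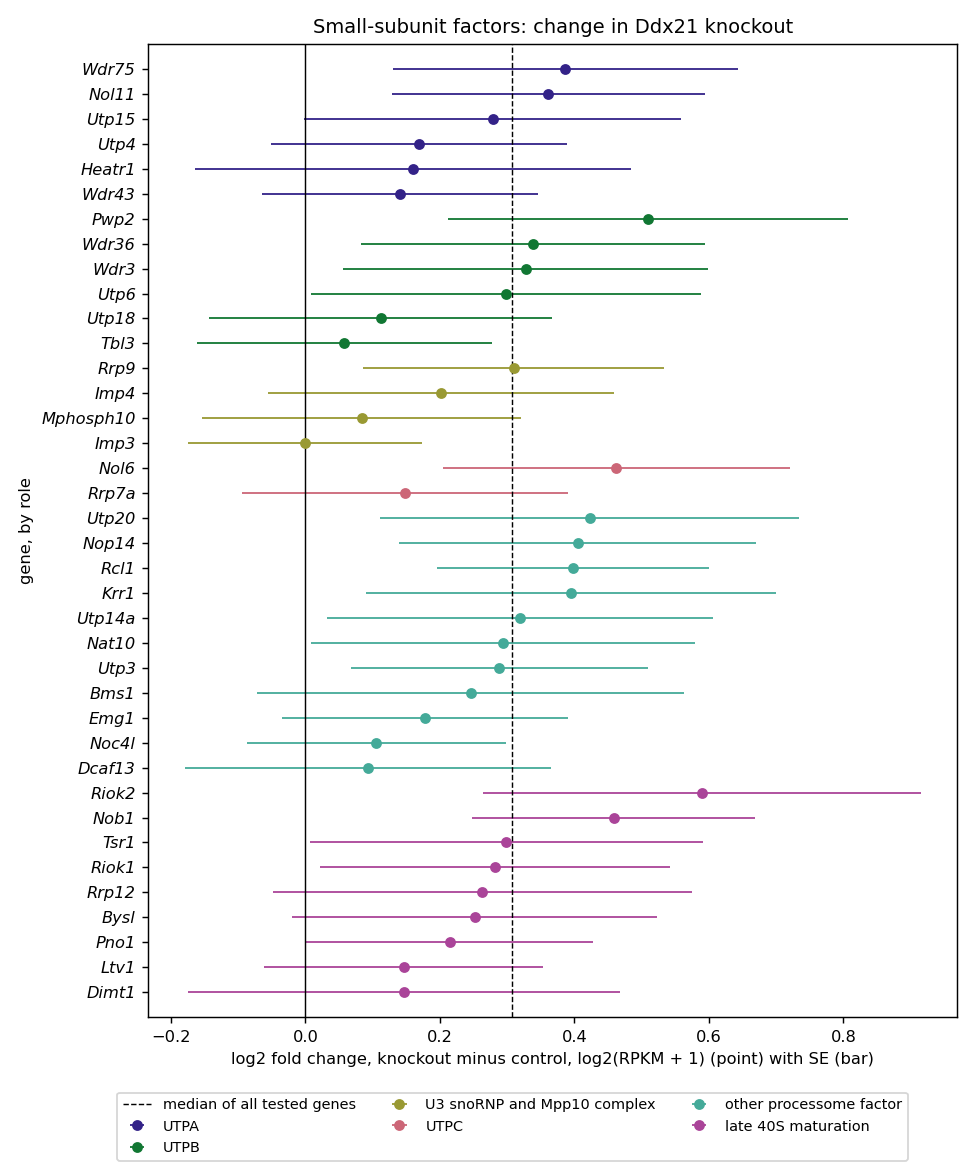
Log2 fold change of each of the 38 factors, knockout minus control on the log2(RPKM + 1) scale (points) with its SE (bars), coloured and ordered by role. The dashed line is the median of all tested genes, 0.31, and the solid line is 0; the points run from about 0 for Imp3 to 0.59 for Riok2, and no member was called.

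The subunits of UTPA, the first module on the precursor and also tied to transcription by RNA polymerase I, had log2 fold changes from 0.14 to 0.39 with a median of 0.22, and 3 of the 6 had both knockout libraries above both controls, as had 55.5% of all tested genes. Nol11 stood at 19.0 and 18.7 RPKM in control and at 21.1 and 28.3 RPKM in knockout. Its groups did not overlap (means 18.8 ± 0.205 and 24.7 ± 5.11 RPKM, SD, n = 2 per group here and below), and the log2 fold change was 0.36 (SE 0.23, adjusted p = 0.397). Wdr75, a WD-repeat subunit, was at 13.1 and 12.4 RPKM against 14.2 and 20.3 RPKM, again without overlap (means 12.8 ± 0.478 and 17.2 ± 4.36 RPKM, log2 fold change 0.39, SE 0.26, adjusted p = 0.404). The lowest value of the module belonged to Wdr43, at 35.9 and 35.3 RPKM in control and 33.5 and 46.2 RPKM in knockout (means 35.6 ± 0.430 and 39.8 ± 8.97 RPKM, log2 fold change 0.14, SE 0.21, adjusted p = 0.647). In Wdr43 the knockout libraries fell on either side of the controls. Utp15 had 0.28, Utp4 0.17 and Heatr1, a very long HEAT-repeat protein, 0.16.

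UTPB, a second module built largely of WD-repeat proteins, held both high and low members, with a median of 0.31. Pwp2 (mm10, chromosome 10, 78170909 to 78185149, minus strand) had 7.60 and 6.79 RPKM in control and 8.55 and 13.2 RPKM in knockout (means 7.19 ± 0.573 and 10.9 ± 3.29 RPKM). Both knockout libraries were above both controls, but the gap between the knockout libraries was larger than that between the groups' nearest values (log2 fold change 0.51, SE 0.30, adjusted p = 0.359). Tbl3 was at 26.8 and 27.8 RPKM against 26.4 and 30.7 RPKM, with overlapping groups (means 27.3 ± 0.700 and 28.6 ± 3.02 RPKM, log2 fold change 0.06, SE 0.22, adjusted p = 0.859). Between them lay Wdr36 at 0.34, Wdr3 at 0.33, Utp6 at 0.30 and Utp18 at 0.11.

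The promoters of Pwp2 and Utp18 are shown because these partners of a single module sit far apart in that order, and that of Nol11 because it is the UTPA member with a CACGTG there. Each run is the 250 bases upstream of the RefSeq start (GRCm38.p6), written 5′ to 3′ in the gene's direction, and all 3 genes lie on the minus strand. Capitals mark CCGGAAG, the core bound by ETS factors, and CACGTG, the E-box bound by Myc with Max and by related factors.
Pwp2, chr10:78185150-78185399: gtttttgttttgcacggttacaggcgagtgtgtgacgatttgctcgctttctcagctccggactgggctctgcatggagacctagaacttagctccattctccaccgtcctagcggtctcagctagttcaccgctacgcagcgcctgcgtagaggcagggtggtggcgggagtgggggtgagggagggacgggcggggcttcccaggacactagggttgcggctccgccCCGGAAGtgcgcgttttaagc
Utp18, chr11:93885767-93886016: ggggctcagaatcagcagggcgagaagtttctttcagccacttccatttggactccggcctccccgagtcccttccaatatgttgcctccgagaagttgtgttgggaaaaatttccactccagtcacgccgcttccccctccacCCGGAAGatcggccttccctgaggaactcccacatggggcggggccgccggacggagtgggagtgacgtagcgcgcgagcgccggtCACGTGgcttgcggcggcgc
Nol11, chr11:107189382-107189631: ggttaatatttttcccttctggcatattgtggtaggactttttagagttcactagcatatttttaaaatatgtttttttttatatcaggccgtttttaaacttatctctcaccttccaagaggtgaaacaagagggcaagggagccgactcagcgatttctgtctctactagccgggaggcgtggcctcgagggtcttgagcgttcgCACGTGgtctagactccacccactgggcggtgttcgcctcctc

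A promoter entry was found for 32 of the 38 members. On either strand, CCGGAAG occurred in 9 of the 32 (28.1%) and in 6.91% of all 32851 promoter entries of the same length (several for some genes), and CACGTG, a palindrome, in 4 of the 32 (12.5%) against 6.02% of all. The palindromic core bound by NRF1 was in 0 of the 32 and in 0.782% of all promoters. The runs were rich in G and C, with a median of 57.4% in the members and 52.4% over all promoters. These entries were not limited to genes of the deposited table, so the members were not set against other expressed genes here. The 9 members with CCGGAAG had a median log2 fold change of 0.17, and the 23 without it 0.30, with ranges of 0.08 to 0.51 and about 0 to 0.59 that overlapped. The 4 with CACGTG (Imp4, Nol11, Rrp7a and Utp18) had 0.175 and the 28 without it 0.285. Of the 3 Myc family genes in the table, Mycn rose (12.8 and 28.5 RPKM in control, 23.0 and 48.3 RPKM in knockout, log2 fold change 0.77, SE 0.22, adjusted p = 0.0196), although its groups overlapped, and its log2 fold change was 0.43 after rescaling. Myc, a known activator of ribosome production genes, stood at 153 and 186 RPKM in control and 175 and 183 RPKM in knockout (0.09, SE 0.17, adjusted p = 0.729; -0.26 after rescaling).

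The U3 and Mpp10 group had the lowest median of the roles, 0.14, and 1 of its 4 members had both knockout libraries above both controls (55.5% of all tested genes). Rrp9, the protein specific to the U3 particle, stood at 20.7 and 24.3 RPKM in control and at 24.7 and 31.8 RPKM in knockout (means 22.5 ± 2.57 and 28.2 ± 4.99 RPKM, log2 fold change 0.31, SE 0.22, adjusted p = 0.426). The first knockout library was barely above the second control. Imp3 (chromosome 9, 56937475 to 56938398, plus strand), which helps U3 pair with the precursor, was the most abundant member per transcript length, at 125 and 112 RPKM in control and 123 and 113 RPKM in knockout. Its groups overlapped fully, with means of 118 ± 9.26 and 118 ± 6.84 RPKM (log2 fold change -0.00085, SE 0.17, adjusted p = 0.997). Its partners Imp4 and Mphosph10 had 0.20 and 0.08.

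Of the UTPC pair, Nol6 stood at 11.7 and 12.7 RPKM in control and at 14.9 and 19.8 RPKM in knockout, without overlap (means 12.2 ± 0.703 and 17.4 ± 3.49 RPKM, log2 fold change 0.46, SE 0.26, adjusted p = 0.345). Rrp7a, its partner, was at 17.0 and 17.4 RPKM against 17.6 and 20.9 RPKM (means 17.2 ± 0.260 and 19.3 ± 2.34 RPKM, log2 fold change 0.15, SE 0.24, adjusted p = 0.679). The first knockout library of Rrp7a was all but level with the controls. Whether the partners differ in their change was not tested.

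The other processome factors and modifying enzymes had a median of 0.29, and 8 of 11 had both knockout libraries above both controls, beside 55.5% of all tested genes. Rcl1, which binds the GTPase Bms1, stood at 37.7 and 32.7 RPKM in control and at 42.4 and 51.2 RPKM in knockout (means 35.2 ± 3.55 and 46.8 ± 6.19 RPKM, log2 fold change 0.40, SE 0.20, adjusted p = 0.307). The groups of Rcl1 did not overlap, and the gap between them was smaller than the gap within either group. Utp20, the longest transcript and lowest level of the set, was at 1.64 and 1.60 RPKM against 2.10 and 2.98 RPKM (means 1.62 ± 0.0310 and 2.54 ± 0.625 RPKM, log2 fold change 0.42, SE 0.31, adjusted p = 0.429). The ratio of its means was 1.57, which the added pseudocount of 1 RPKM compresses on the log2 scale. Dcaf13 was at 11.8 and 11.2 RPKM against 11.4 and 13.4 RPKM, with overlap (means 11.5 ± 0.406 and 12.4 ± 1.43 RPKM, log2 fold change 0.09, SE 0.27, adjusted p = 0.816).

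Nop14 (0.40) and Noc4l (0.11) form a complex that recruits the methyltransferase Emg1 (0.18), so partners lay at different places in the band. Krr1, an RNA-binding KH-domain protein, had 0.39, Utp14a 0.32, the RNA cytidine acetyltransferase Nat10 0.29 and Utp3 0.29. Bms1 had 0.25 on values of 5.82 and 6.39 RPKM in control and 5.34 and 10.2 RPKM in knockout. Its first knockout library was below both controls and its second far above them.

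Late 40S maturation factors had a median of 0.26, and 5 of 9 had both knockout libraries above both controls, near the 55.5% of all tested genes. Nob1 (chromosome 8, 107412486 to 107425051, minus strand), the endonuclease of the final 18S cut, had the smallest p of the set. It stood at 29.7 and 28.2 RPKM in control and at 35.3 and 45.6 RPKM in knockout (means 28.9 ± 1.04 and 40.4 ± 7.26 RPKM, log2 fold change 0.46, SE 0.21, adjusted p = 0.253). The groups were apart, with the knockout libraries farther from each other than the controls were. Pno1, the RNA-binding protein that holds Nob1 in check on the particle, had 0.21.

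The atypical kinases of the late particle were Riok2 and Riok1. Riok2 (chromosome 17, 17374309 to 17394899, plus strand) had the largest log2 fold change of the set, at 4.96 and 4.37 RPKM in control and 6.91 and 8.16 RPKM in knockout (means 4.67 ± 0.417 and 7.54 ± 0.886 RPKM). The log2 fold change was 0.59 (SE 0.33, adjusted p = 0.340), and here the gap between the groups was wider than the gap within either group. Riok1 stood at 13.7 and 11.7 RPKM against 13.3 and 18.3 RPKM, with overlap (0.28). Dimt1, which dimethylates adenosines of 18S RNA, was at 5.97 and 5.96 RPKM in control and 5.50 and 8.13 RPKM in knockout (means 5.96 ± 0.00431 and 6.82 ± 1.86 RPKM, log2 fold change 0.15, SE 0.32, adjusted p = 0.756). Tsr1 had 0.30, the export factor Rrp12 0.26, Bysl 0.25 and Ltv1 0.15.

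The roles shared the library with the high values. The second knockout library gave the highest value for 37 of the 38 members, Imp3 being the exception, and for 78.6% of all tested genes. In the first knockout library 22 members were above both controls, 10 lay between them and 6 were below both. Of all tested genes, 58.9% were above both controls and 19.0% below both in that library. Relative to the control mean, the median member was at 0.08 in knockout replicate 1 and at 0.49 in replicate 2, where the medians of all tested genes were 0.12 and 0.50. In each library the members' median lay close to that of the whole table.

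**Figure D2:**
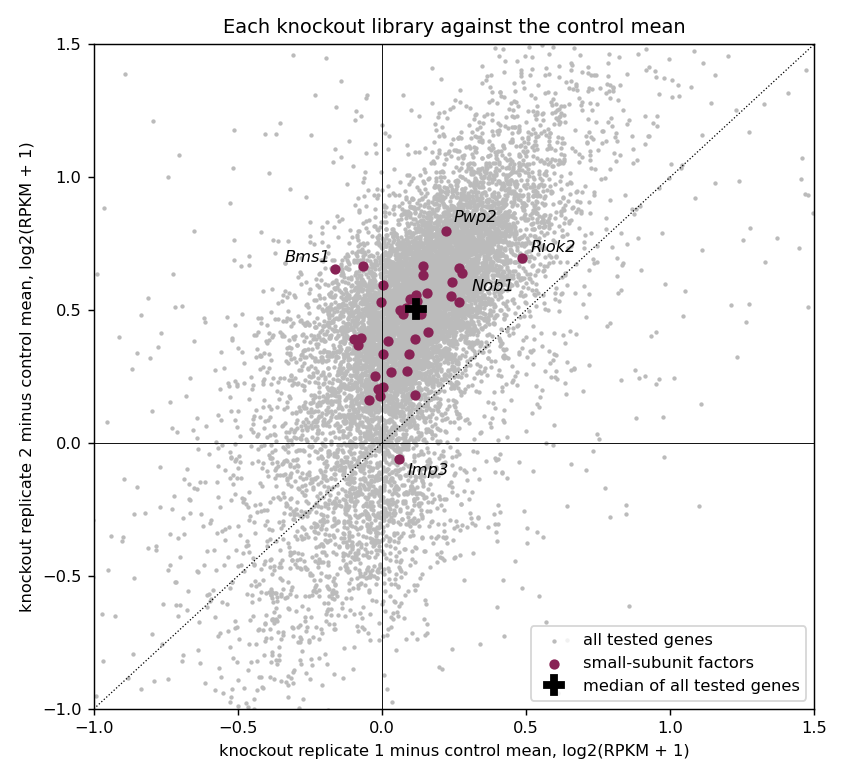
Difference of knockout replicate 1 (x axis) and replicate 2 (y axis) from the control mean on the log2(RPKM + 1) scale, with the 38 factors in purple over all tested genes in grey; the axes run from -1 to 1.5 and leave out 238 genes. The factors surround the median of all genes (black cross, 0.12 and 0.50), and all but Imp3 lie above the dotted line of equal values.

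The spread between knockout libraries was wider than that between controls for 36 of the 38 members, and for 82.1% of all tested genes. The median SD of a member's log2 values was 0.05 in control and 0.26 in knockout, against 0.09 and 0.28 over all tested genes. On the deposited scale the members were therefore tight among the controls and wide in the knockout group. The rescaling described below divided knockout replicate 1 by 0.977 and replicate 2 by 1.307. After it the median member lay at -0.05 and -0.02 relative to the control mean. How much of the spread is a difference in scale between whole libraries was not tested. By role, the deposited median in knockout replicate 2 was 0.28 for the U3 and Mpp10 group and 0.44 for UTPA. It reached 0.53 for the other processome factors and 0.55 for UTPB. In replicate 1 the role medians lay between 0.04 and 0.15.

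For 22 of the 38 members (57.9%) both knockout libraries were above both controls, and for 0 both were below, where 55.5% of all tested genes were higher and 7.38% lower. With a knockout library left out, that group is 1 library and the spread comes from the 2 controls alone, and likewise for the controls. Without knockout replicate 1, 22 members were called higher and 0 lower, a share close to the 54.3% of all tested genes called higher there (4.48% lower). Without knockout replicate 2 no member was called (0.818% and 0.111% of all tested genes, higher and lower) and the members' median was 0.08. No member was called without control replicate 1 (0.315% and 0.0426% of all tested genes) or control replicate 2 (0.23% and 0.0766%). The same held with a pseudocount of 0.1 (3.42% and 0.911%), no filter (3.54% and 0.92%), no trend (3.18% and 0.443%), the replicate block (1.49% and 0.545%) and rescaling without knockout replicate 1 (1.38% and 6.92%).

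The summed share of reads followed the same order. Of the reads of each control library, 0.208% and 0.204% belonged to the 38 genes, and of each knockout library 0.218% and 0.276%. The means were 0.206% ± 0.00319 and 0.247% ± 0.0416 (SD, n = 2 per group). Without knockout replicate 2 the difference was 0.0115 percentage points, and without knockout replicate 1 it was 0.0703.

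Rescaling the libraries by the trimmed mean of log ratios moved the median of all tested genes from 0.31 to 0.02 and the median of the members from 0.28 to -0.05. After it 12 members were above 0 and 26 below, where 6165 of all 11742 tested genes were above 0 and 5577 below. None of the members was called, where limma called 0.00852% of all tested genes higher and 0% lower. The members were without overlap toward lower for 15 of 38 (39.5%) and toward higher for 8 of 38 (21.1%), against 25.7% and 28.7% of all tested genes. Riok2 (0.29), Pwp2 (0.19), Utp20 (0.18), Nol6 (0.13) and Nob1 (0.12) were the highest. Imp3 (-0.35), Tbl3 (-0.28), Mphosph10 (-0.25), Noc4l (-0.24) and Dcaf13 (-0.23) were the lowest. The smallest adjusted p of a member was then 0.323 with limma and 0.303 with voom, both for Riok2, and voom called 0.435% of all tested genes higher and 0.187% lower.

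**Figure D3:**
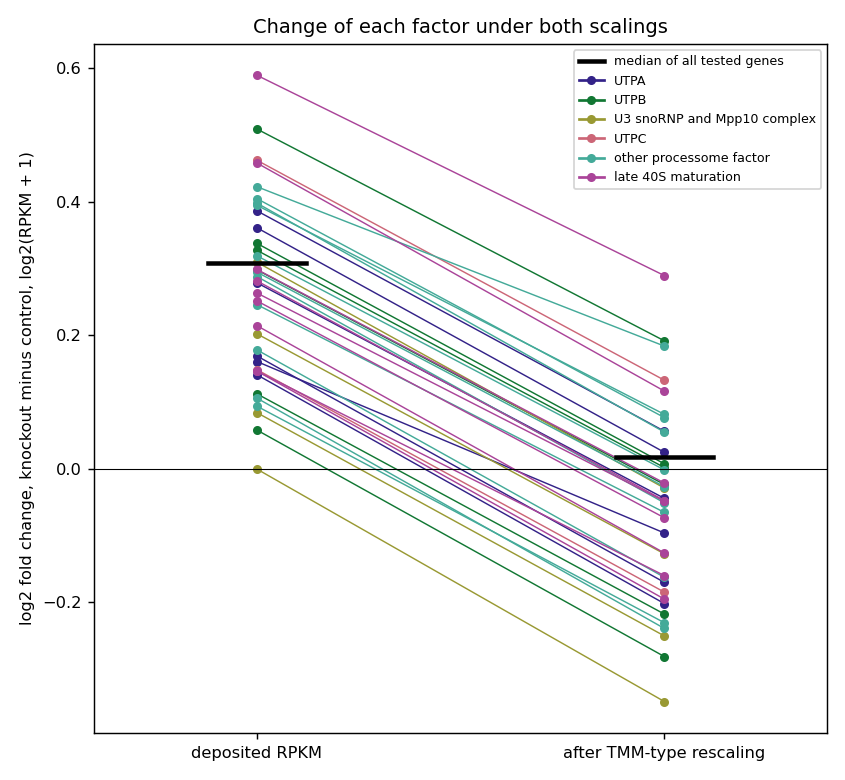
Log2 fold change of each factor, knockout minus control on the log2(RPKM + 1) scale, in the deposited values (left) and after rescaling by the trimmed mean of log ratios (right), with a line per gene coloured by role. Black bars are the medians of all tested genes, 0.31 and 0.02. On the left 37 factors were above 0, as were 83.1% of all tested genes. On the right 12 were, as were 6165 of all 11742 tested genes.

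Other genes of the pathway were not called either. Of 32 further small-subunit factors 30 were in the table, and 0 rose and 0 fell, with a median of 0.26. The smallest p-values there belonged to Ngdn, a processome protein (33.4 and 33.2 RPKM in control, 38.5 and 51.8 RPKM in knockout, 0.41, SE 0.20, adjusted p = 0.297), and Aatf, its partner (23.9 and 21.5 against 26.0 and 35.5 RPKM, 0.41, SE 0.22, adjusted p = 0.334). Of 44 large-subunit assembly factors 0 rose and 0 fell, with a median of 0.24 and, after rescaling, of -0.10. The helicase Ddx27 (0.40, adjusted p = 0.330) and Nop53 (0.34, adjusted p = 0.360) had the smallest p-values. No test of a difference between the small- and large-subunit lists was made.

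The members differed widely in level, with a median of 14.8 RPKM against 6.48 RPKM over all tested genes. Of the 38, 10 were under 10 RPKM, 20 from 10 to 30 RPKM and 8 at 30 RPKM or more. Below Imp3 at 118 RPKM came Noc4l at 53.8, Rcl1 at 41.0 and Wdr43 at 37.7 RPKM (means over the 4 libraries). At the low end were Riok2 at 6.10, Heatr1 at 2.52 and Utp20 at 2.08 RPKM. Of the 37 neighbouring pairs in this order, 35 overlapped between libraries. The exceptions were Imp3 above Noc4l and Riok2 above Heatr1.

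**Figure D4:**
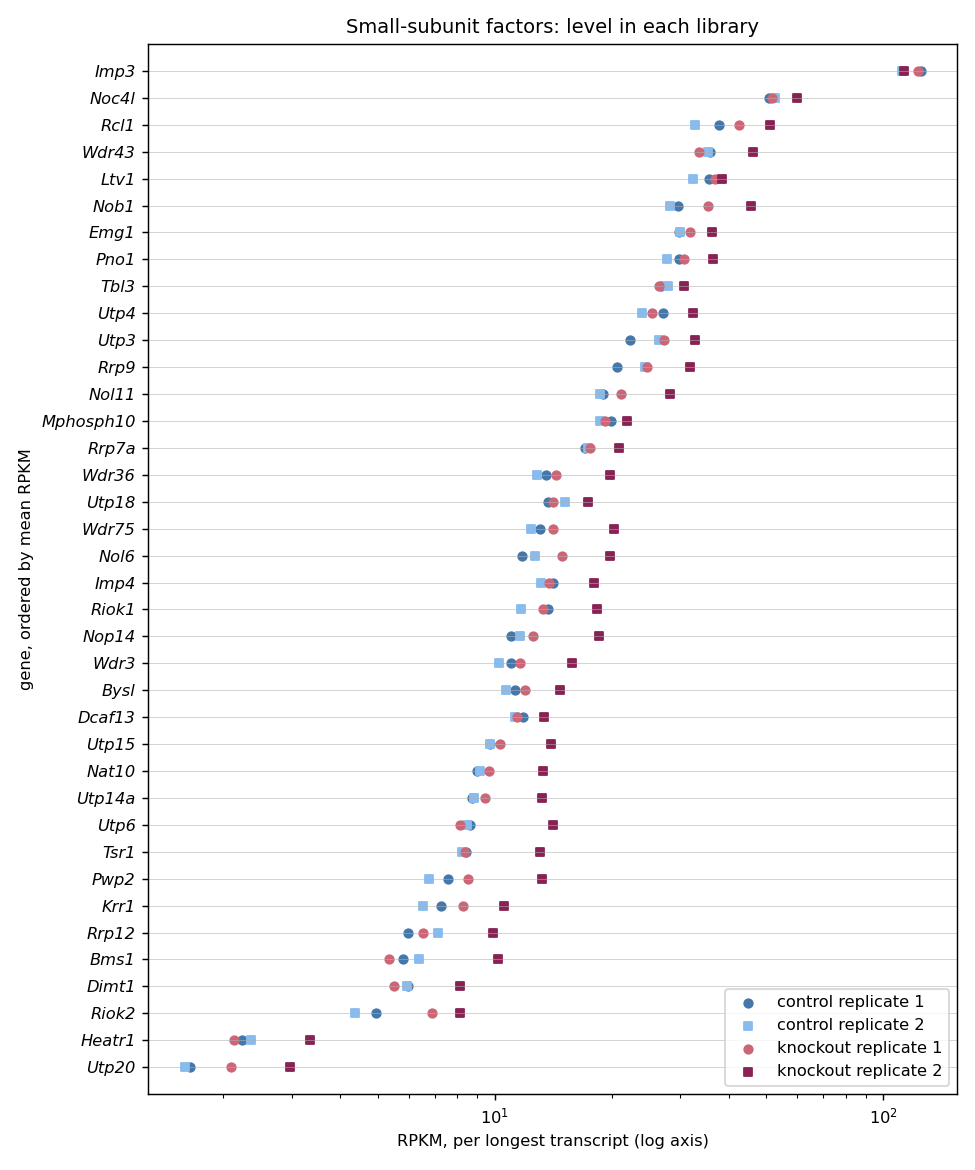
RPKM of the 38 factors in each of the 4 libraries on a log axis, ordered by mean, with controls in blue, knockouts in red and purple, and replicate 1 as circles and replicate 2 as squares. The purple squares of knockout replicate 2 lie to the right in every row except that of Imp3, and levels run from 1.60 RPKM for Utp20 to 125 RPKM for Imp3.

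Levels are per length of the longest annotated transcript, which is not always the usual messenger. For 12 members the annotated principal transcript was shorter, and for 3 the longest exceeded it by over 1.5 times. Divided by the principal length, all reads of Emg1 (1034 in place of 4329 bases) gave 134 RPKM in place of 32.0, above Imp3. Dcaf13 (1551 in place of 6477 bases) moved from rank 25 to rank 4 of the 38, and Dimt1 had 10.4 in place of 6.39 RPKM. This choice changes the order of levels between genes and leaves each gene's ratio between libraries as it was.

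Across the 38 members, the log2 fold change was lower for genes at higher levels, with a Pearson r of -0.38 against log2 mean RPKM (Spearman rho -0.34). For the difference between the knockout libraries r was -0.58 (rho -0.59). Over 11737 tested genes the same correlations were -0.25 and -0.28. The points share libraries and scaling, so these are descriptions across genes. Against the log2 length of the longest transcript the difference between the knockout libraries had r = 0.39 in the members and 0.32 over all tested genes.

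The exons of 19 members overlapped those of another gene on the opposite strand, and no member overlapped a gene on its own strand. The overlap was over 1000 bases for Tbl3 with Noxo1 (2122 bases), Tsr1 with Srr (1240 bases) and Dimt1 with Kif2a (1229 bases). Since the libraries do not mark strand, reads of these partners cannot be told apart. Nob1, Pwp2, Nol6, Rcl1, Utp20 and Imp3 had no such overlap, while Riok2 overlapped Gm26873 by 362 bases.

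Markers of dividing cells were measured as well. The 10 proliferation genes summed to 739 and 771 RPKM in control, 532 RPKM in knockout replicate 1 and 737 RPKM in replicate 2. Of the 10, Ube2c fell, and 7 had overlapping groups. All 10 were lower in knockout replicate 1 than in both controls, against 19.0% of all tested genes. After rescaling their median log2 fold change was -0.53 in place of -0.19. Relative to the control mean, the rescaled medians were -0.52 in knockout replicate 1 and -0.47 in replicate 2. Of the 10, 9 then had both knockout libraries below both controls, against 25.7% of all tested genes. The part of this difference in the factors' values was not tested.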

How the data were processed

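The authors deposited RPKM values (reads divided by transcript length and sequencing depth) for 12390 genes in each library, each of them above 1 RPKM in at least 1 library, and the unit was worked out from the numbers, since no header names it. Per the submitters' processing notes the build was mm10. The aligner and counter were not given in the sources used. Each value times the gene's longest transcript in GENCODE mouse release M21 gave whole reads, within 0.1, for 99.36% to 99.39% of the values in a library. Symbols and coordinates also come from that annotation. Of 12390 genes, 12384 had a symbol.

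Values were transformed to log2(RPKM + 1), and the 11742 genes whose mean reached 1 RPKM were fitted in limma 3.58.1 (R 4.3.3), with the variance trend switched on and genotype as sole term (2 residual degrees of freedom). A gene was called at a Benjamini-Hochberg adjusted p-value under 0.05, adjusted over every tested gene. The main fit gave each gene the spread of the trend and no weight to its own. P-values of genes with distant replicates are then too small, and those of genes with close replicates can be too large. Fits on rescaled or quantile-normalized values, with voom, or without a knockout library did give weight to a gene's own spread. Alternatives were a pseudocount of 0.1, no filter, a rescaling by the trimmed mean of log ratios (30% of ratios and 5% of levels trimmed at each end), quantile normalization, voom on rescaled reads, no trend, a replicate block and each library left out. Leaving out a library leaves its group with 1 library, so the spread then comes from the other group alone, and the lone library is assumed to vary like it. Rescaling with a knockout library left out, and levels per principal transcript, were chosen after seeing the data.

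The members and lists were chosen with earlier results of these data known, and lists are described by counts and medians. Named in full are, per role, the member with the smallest p, the largest and the smallest log2 fold change, and over the list the highest and lowest level. Of the other lists, the 2 members with the smallest p are named. Calls for single stem cell markers are not all reported here.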

Additional observations from a re-analysis of the deposited data

How the results depend on the processing

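With 2 libraries per group, the count of calls over all genes changed with the setting and with single libraries. The direction of most members depended on scaling. Rescaled, quantile-normalized and voom fits changed both the scaling and the weight given to a gene's own spread. Their parts in the counts of calls cannot be told apart. The lowest count of a member, 630 reads, bears on counting error only. The counts of all tested genes higher and lower, 391 and 101, became 1 and 0 after rescaling, 0 and 0 with quantile normalization, 51 and 22 with voom on rescaled reads, and 373 and 52 without the trend. Leaving out a library gave 27 to 6381 higher and 5 to 526 lower, the top of both ranges without knockout replicate 1. Rescaling without knockout replicate 1 gave 162 and 812, and without knockout replicate 2 gave 0 and 0. The replicate block gave 175 and 64 and no called member. The shared numbers are not stated to pair libraries, and the differences between replicates 1 and 2 correlated by 0.067 between the groups over genes. A pseudocount of 0.1 and no filter kept both counts within 1.5 times.

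The count of called members was 0 in every setting that kept 2 libraries per group. Over all tested genes those settings called from 0% to 3.54% higher and from 0% to 0.92% lower. After rescaling 1 gene of the whole table was called, and with quantile normalization 0. A count of 0 members in those 2 settings therefore tells nothing about the members. Counts with a library left out stand with the results above. The members' median, 0.28, was -0.049 after rescaling, -0.036 with quantile normalization and -0.051 with voom. Leaving out a library gave 0.084 to 0.49, and rescaling with knockout replicate 2 or 1 left out gave -0.049 and -0.023. The difference in the share of reads ranged from 0.0115 to 0.0703 percentage points with a library left out. The cause was not tested.

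The sign of 25 members turned after rescaling: Utp4 -0.17, Utp15 -0.045, Wdr43 -0.20, Heatr1 -0.10, Utp6 -0.024, Utp18 -0.22, Tbl3 -0.28, Rrp9 -0.029, Imp4 -0.13, Mphosph10 -0.25, Rrp7a -0.19, Bms1 -0.066, Utp3 -0.051, Utp14a -0.0021, Dcaf13 -0.23, Noc4l -0.24, Emg1 -0.16, Nat10 -0.027, Rrp12 -0.049, Ltv1 -0.20, Tsr1 -0.022, Bysl -0.074, Dimt1 -0.16, Pno1 -0.13, Riok1 -0.048. With quantile normalization 23 turned: Utp4 -0.082, Utp15 -0.050, Wdr43 -0.067, Heatr1 -0.18, Utp6 -0.030, Utp18 -0.18, Tbl3 -0.19, Imp4 -0.092, Mphosph10 -0.19, Rrp7a -0.12, Bms1 -0.11, Utp14a -0.016, Dcaf13 -0.23, Noc4l -0.065, Emg1 -0.044, Nat10 -0.041, Rrp12 -0.094, Ltv1 -0.078, Tsr1 -0.042, Bysl -0.066, Dimt1 -0.21, Pno1 -0.0068, Riok1 -0.017. With voom on rescaled reads 25 turned: Utp4 -0.18, Utp15 -0.049, Wdr43 -0.21, Heatr1 -0.13, Utp6 -0.019, Utp18 -0.23, Tbl3 -0.28, Rrp9 -0.032, Imp4 -0.14, Mphosph10 -0.27, Rrp7a -0.19, Bms1 -0.060, Utp3 -0.055, Utp14a -0.0003, Dcaf13 -0.25, Noc4l -0.23, Emg1 -0.15, Nat10 -0.029, Rrp12 -0.051, Ltv1 -0.19, Tsr1 -0.017, Bysl -0.081, Dimt1 -0.18, Pno1 -0.13, Riok1 -0.050. Leaving out a library turned the sign of 11, each without knockout replicate 2, and Imp3 also without control replicate 1, over these ranges: Wdr43 -0.085 to 0.37, Heatr1 -0.075 to 0.40, Utp6 -0.068 to 0.66, Utp18 -0.026 to 0.25, Tbl3 -0.047 to 0.16, Imp3 -0.080 to 0.079, Mphosph10 -0.0083 to 0.18, Bms1 -0.16 to 0.65, Dcaf13 -0.016 to 0.20, Rrp12 -0.0029 to 0.53, Dimt1 -0.10 to 0.39.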
